A study of Mus musculus with 27 samples.

Results

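Gad1, Gad2, Th and Ddc encode the enzymes that make GABA and dopamine, and their transcript levels were followed through activation and withdrawal of Myc in mouse pancreatic islets. The 4 genes are 4 of 8251 genes with a symbol of their own on the array, and each was read by 1 of 12422 probe sets. They were chosen from measured values of these data, in which Gad1 was lower than in untreated islets at 4 h and 8 h and Th at 8 h. Every comparison of these 4 genes with untreated islets, and that of 24 h with 8 h, is therefore given as a description without a test.

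The mice carried a pair of transgenes, MycER and BclXL, each under an insulin promoter. MycER is Myc fused to an oestrogen receptor domain that responds to tamoxifen, and BclXL is a survival protein. All 9 groups carried both transgenes, and each group held 3 arrays of laser-captured islets, 27 in all. Untreated mice were the controls. Mice were taken 2 h, 4 h, 8 h or 24 h after a systemic injection of 4-hydroxytamoxifen, or after 21 days of daily tamoxifen, which the sample names also call 4OHT. Regression was followed 2, 4 and 6 days after the end of a 21-day course. No group without MycER and no group given vehicle alone was analysed here, so drug and Myc activity cannot be told apart. An insulin promoter limits Myc activation to beta cells, whereas the captured islets also hold other cells. The labels number the samples of a group without saying that they came from separate mice, so a p-value here reflects sample-to-sample spread, which may be technical.

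GABA is made from glutamate by the glutamate decarboxylases Gad1 and Gad2, which use pyridoxal phosphate as cofactor, and islet beta cells are known to make it. Th, tyrosine hydroxylase, converts tyrosine to L-DOPA with tetrahydrobiopterin as cofactor and is the rate-limiting enzyme of catecholamine synthesis. Ddc, the aromatic amino acid decarboxylase, then makes dopamine from L-DOPA and also serotonin from 5-hydroxytryptophan.

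Levels are the authors' RMA values on a log2 scale, on which a difference of 1 is a 2-fold change, and the median of an array lay between 6.91 and 7.01. Ins2, the insulin gene that defines beta cells, had group means between 13.64 and 13.83, but most of the 10 beta cell markers were lower than in untreated islets during drug, 10 of 10 at 4 h, 9 at 8 h and 7 at 21 days (median log2 differences -0.26, -0.71 and -0.47). Among them, Slc2a2 was 10.52 in untreated islets, 9.31 at 8 h and 8.89 at 21 days, and Pdx1 7.06, 5.92 and 6.05. Acinar markers, which report exocrine tissue in the capture, varied most: the summed linear signal of 12 genes was 66749 to 98198 at 24 h, 3757 to 5961 at 21 days and 7506 to 47551 in untreated islets. The difference between the 3′ and 5′ probe sets of the Gapdh control, a measure of RNA integrity and amplification, was 4.83 ± 0.08 (SD, n = 3) at 21 days and 3.78 ± 0.11 at 24 h, and 3.54, 3.83 and 3.92 at 2, 4 and 6 days off drug. The b-Actin control had the opposite order, 2.39 at 21 days (2.12 to 2.79) and 2.70 at 24 h (2.54 to 2.97). Off drug it read 2.68, 2.61 and 2.85. The 2 controls thus disagree on 21 days, and b-Actin was not used as a covariate. The nerve markers Prph and Gap43 had group means between 5.15 and 5.83, with highest single values of 7.12 and 7.41 at 8 h, while the summed signal of the 14 neuronal markers, some of which endocrine cells also express, was 13177 to 14646 in untreated islets, 11615 to 12765 at 8 h, 13720 to 14786 at 21 days and 17346 to 19982 at 4 days off. In a bulk sample, fewer cells of a type and less RNA per cell cannot be told apart.

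Gad1 read higher in untreated islets than at 4 h and 8 h. Its 3 untreated arrays read 7.06, 7.14 and 7.51 and its 3 arrays at 2 h read 7.15, 6.63 and 6.99. At 4 h they read 5.52, 4.85 and 4.17, and at 8 h 4.77, 4.38 and 4.75. All 6 arrays at 4 h and 8 h lay below all untreated and 2 h arrays. The mean at 8 h was 4.63 ± 0.22 (SD, n = 3) against 7.24 ± 0.24 in untreated islets, a log2 difference of -2.60 ± 0.49 (SE), or 6.08-fold lower, and at 4 h the difference was -2.39 ± 0.49. Over the same comparisons the beta cell markers were lower as given above, and 11 of 12 acinar markers were higher at both times (median differences 1.29 at 4 h and 0.95 at 8 h), while 3 of 3 alpha cell markers were lower at 8 h. These shifts were not confined to 4 h and 8 h. At 2 h 11 of 12 acinar markers were higher (median 1.498) and 8 of 10 beta cell markers lower (median -0.113). At 24 h 12 of 12 acinar markers were higher (median 2.473) and 9 of 10 beta cell markers lower (median -0.26). All 3 alpha cell markers were also lower at 24 h. The part of these markers in the Gad1 and Th values was not tested. The means at 4 h and 8 h exceeded those of 11 of 15 bacterial control probe sets, whose targets mouse RNA lacks, against 14 of 15 in untreated islets. The Gad1 mean also exceeded 14 of 15 at 2 h, 24 h and 21 days, and at 2 and 4 days off. At 6 days off it exceeded 13 of 15, so no group mean exceeded all 15. The highest control averaged 7.14 over the arrays and the next highest 5.68. All 3 Gad1 arrays stood above the control median in every group. At 4 h and 8 h the lowest Gad1 array exceeded only 9 and 10 of 15 controls, so Gad1 is not shown to stand above background there. The differences at 4 h and 8 h understate the change if Gad1 did not stand above background at those times.

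At 24 h Gad1 stood between these levels, at 6.72, 5.73 and 6.09, above every 8 h array and below every untreated one. The 24 h mean differed by 1.55 ± 0.49 from 8 h and by -1.06 ± 0.49 from untreated. After 21 days of drug the arrays read 6.75, 7.36 and 7.05, overlapping the untreated ones, with a difference of -0.18 ± 0.49. Gad1 was therefore near its untreated level while drug was still being given. Off drug it read 6.97, 6.32 and 7.78 at 2 days, 5.39, 7.70 and 7.84 at 4 days, and 5.96, 6.73 and 5.58 at 6 days. Only the 6-day arrays lay wholly below the untreated ones, by -1.15 ± 0.49. The low array at 4 days also had the least summed signal of 3 alpha cell markers in its group, 1248 against 3183 and 2374. At 6 days the array with the lowest Gad1 had the most such signal, 2166 against 1060 and 1477. At 2 days the array with the lowest Gad1 had 1036, between 958 and 2232. The part of alpha cell content in the Gad1 values was not tested.

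Gad2, the other GABA-making enzyme, read 3.92 to 4.54 over all 27 arrays, with group means from 4.03 to 4.33. The 15 bacterial controls had per-array medians of 3.76 to 4.20, so Gad2 is not shown to stand above background in any group. Its differences from untreated ranged from -0.07 to 0.23, with an SE of 0.12.

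Th was high in untreated islets, lower at 4 h and 8 h, and lowest after 21 days of drug. The untreated arrays read 10.53, 10.06 and 10.59. The arrays read 10.27, 9.72 and 10.00 at 2 h, 9.62, 9.59 and 9.24 at 4 h, and 9.17, 9.64 and 8.71 at 8 h. All arrays at 4 h and 8 h lay below the untreated ones, by -0.91 ± 0.29 and -1.22 ± 0.29, with the beta cell and acinar markers moving as given for Gad1. At 24 h the arrays read 10.46, 9.19 and 10.27, so 2 of 3 were in the untreated range and 1 was not. The mean difference there was -0.42 ± 0.29, and without the low array it was -0.03. At 21 days the arrays read 8.06, 7.83 and 8.59, all below every array of the untreated, 2 h, 4 h, 8 h and 24 h groups, and the difference from untreated was -2.23 ± 0.29, or 4.70-fold lower.

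Off drug, Th read 8.46, 9.16 and 8.73 at 2 days, 9.61, 9.34 and 9.61 at 4 days, and 8.88, 9.32 and 9.49 at 6 days. All 9 of these arrays stayed below the untreated ones. The differences from untreated were -1.61, -0.87 and -1.16 (SE 0.29 each). Th stood above all 15 bacterial controls in every group.

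Ddc, the enzyme after Th, differed from it most at 21 days: its group means were below the untreated mean up to 8 h and above it from 24 h on. The untreated arrays read 9.62, 10.47 and 10.61. They were followed by 10.09, 9.99 and 9.89 at 2 h, 9.86, 9.64 and 10.09 at 4 h, and 9.15, 9.76 and 9.81 at 8 h. These early groups overlapped the untreated arrays, and the 8 h difference was -0.66 ± 0.26. At 24 h the arrays read 10.74, 10.60 and 10.85, all above the 8 h arrays, by 1.16 ± 0.26. At 21 days they read 11.15, 11.30 and 10.64, all above the untreated ones, by 0.80 ± 0.26. Off drug they read 11.04, 11.01 and 11.51 at 2 days, 11.24, 11.75 and 11.21 at 4 days, and 10.41, 11.12 and 11.42 at 6 days. The differences from untreated were 0.95, 1.17 and 0.75 (SE 0.26 each), with overlap only at 6 days.

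**Figure D1:**
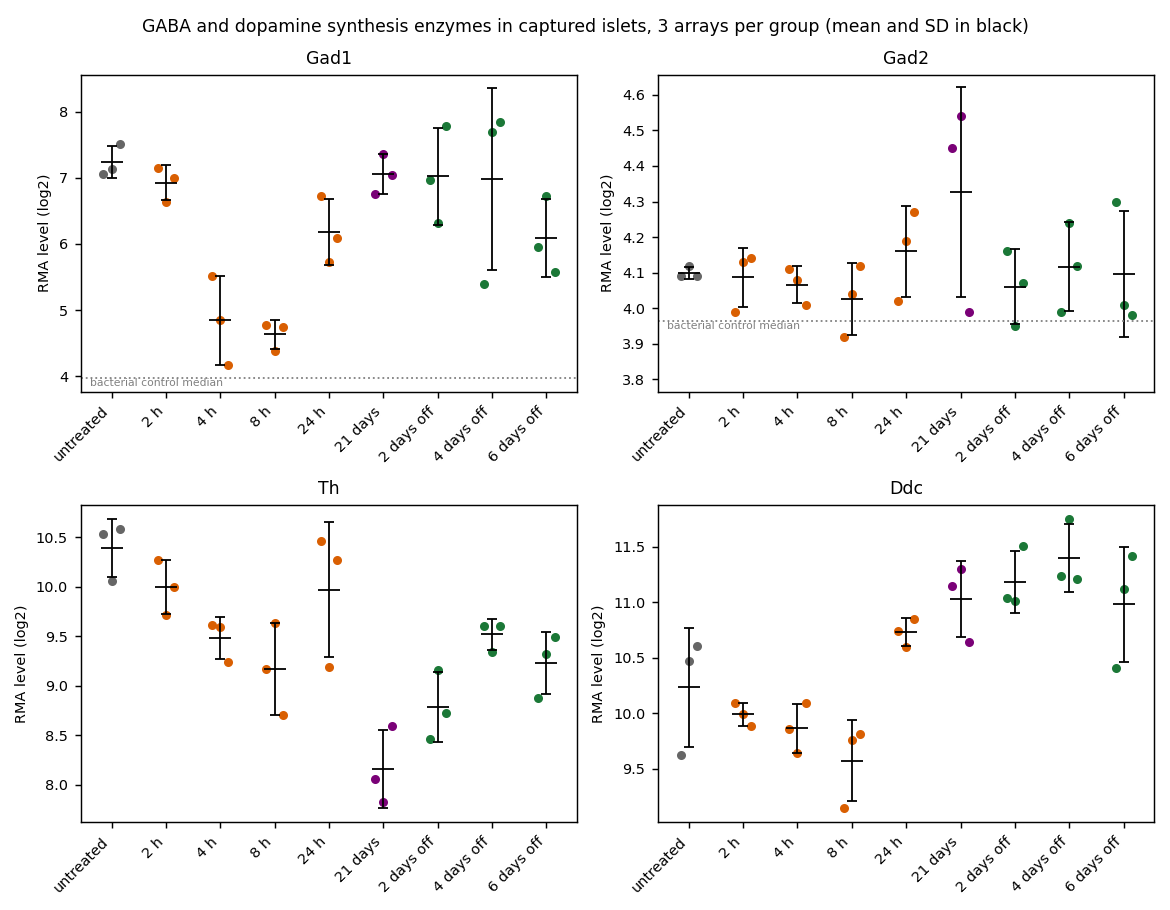
RMA level (log2) of Gad1, Gad2, Th and Ddc in 9 groups; each point is 1 array (3 per group), black bars are the mean and SD, and the dotted line is the median of the 15 bacterial controls where it falls in range. Gad1 dips at 4 h and 8 h, Th has its lowest mean, 8.16, at 21 days, and Ddc has its highest, 11.40, 4 days off drug.

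The order of group means put few neighbours apart. For Gad1, only 6 days off (6.09) and 4 h (4.85) were adjacent groups whose arrays did not overlap. For Th, Ddc and Gad2 the arrays of all neighbours in the order overlapped. From the lowest to the highest group mean, Gad1 spanned 2.60, Th 2.23, Ddc 1.83 and Gad2 0.30 on the log2 scale. Over the 27 arrays, which share the groups, Pearson's r was 0.05 between Gad1 and Th, 0.54 between Gad1 and Ddc and -0.32 between Th and Ddc. The group means of Th and Ddc nevertheless changed in the same direction in 7 of 8 steps between successive groups, and in opposite directions only from 24 h to 21 days (-1.81 and 0.30).

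The start regions of the 3 genes that varied are shown because Myc binds DNA at the E-box CACGTG and cyclic AMP acts on Th through a response element in its promoter. Sequences are from RefSeq (GRCm38.p6), 5′ to 3′ on the gene's strand, from 250 bases before to 50 bases after a transcript start in that table. That start is the end of the annotated gene for Th and for Ddc start 1, and lies 826 bases inside the gene for Gad1 and 7736 for Ddc start 2. Capitals mark TGACGTCA (the cyclic AMP response element), CACGTG or TATAAA on either strand, so TTTATA is a match to TATAAA on the other strand. Th lies on the minus strand (chr7:142899946-142900245), Gad1 on the plus strand (chr2:70561879-70562178), and Ddc on the minus strand with 2 starts in the table (chr11:11898095-11898394 and chr11:11890359-11890658).
Th: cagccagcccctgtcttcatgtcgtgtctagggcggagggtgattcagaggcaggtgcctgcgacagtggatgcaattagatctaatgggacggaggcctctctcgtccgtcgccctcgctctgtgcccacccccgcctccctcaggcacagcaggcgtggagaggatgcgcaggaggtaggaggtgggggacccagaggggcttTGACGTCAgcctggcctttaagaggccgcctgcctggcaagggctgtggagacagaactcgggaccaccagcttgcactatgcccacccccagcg
Gad1: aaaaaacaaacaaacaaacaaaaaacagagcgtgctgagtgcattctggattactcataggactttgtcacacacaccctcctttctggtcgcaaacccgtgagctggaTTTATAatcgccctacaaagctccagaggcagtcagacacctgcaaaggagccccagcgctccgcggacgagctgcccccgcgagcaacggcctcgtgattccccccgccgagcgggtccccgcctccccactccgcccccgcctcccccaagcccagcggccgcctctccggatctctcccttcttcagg
Ddc start 1: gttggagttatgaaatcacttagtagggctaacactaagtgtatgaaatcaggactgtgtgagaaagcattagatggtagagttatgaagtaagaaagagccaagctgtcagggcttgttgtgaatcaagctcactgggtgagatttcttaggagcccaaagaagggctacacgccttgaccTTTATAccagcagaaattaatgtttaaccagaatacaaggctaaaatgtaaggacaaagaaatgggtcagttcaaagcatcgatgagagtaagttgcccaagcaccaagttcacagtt
Ddc start 2: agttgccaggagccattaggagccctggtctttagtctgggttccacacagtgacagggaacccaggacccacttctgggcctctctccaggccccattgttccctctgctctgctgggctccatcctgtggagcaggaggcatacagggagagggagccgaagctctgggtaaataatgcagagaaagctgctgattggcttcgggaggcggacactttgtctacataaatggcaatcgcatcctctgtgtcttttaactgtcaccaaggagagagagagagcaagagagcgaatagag

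The Th window held TGACGTCA at base -45 from the start, a motif found in 1.79% of 32851 start windows. Gad1 held TATAAA at base -141 and the upstream Ddc window at base -68, against 13.6% of all windows. CACGTG was in none of these 4 windows and in 7.15% of all windows. The looser form CANNTG, which includes CACGTG, was at base -104 in Gad1 and base -199 in Th, and is in 72.3% of windows. The GC box GGGCGG was at base -8 in Gad1 and base -220 in Th, and is in 35.7% of windows. These are matches of letters in a short window. Th itself spans chr7:142892779-142899995, and 213052 bases separate it from Ins2, with 4 annotated genes between them of which 0 code for protein.

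The comparison of 21 days with 24 h asks how sustained drug differed from a recent injection, and shares no array with the early falls used to choose the genes. It is not fully independent of that choice. All 27 arrays share the estimate of the spread, and the tests were chosen with earlier results of these data known. Th was 9.97 ± 0.69 (SD, n = 3) at 24 h and 8.16 ± 0.39 at 21 days. It fell by 1.81 ± 0.29 (SE), or 3.51-fold, with no overlap of arrays (limma, adjusted p = 0.000282). Of the 4 genes 1 was called lower and 0 higher, against 10.4% of all genes lower and 11.4% higher. Gad1 differed by 0.87 ± 0.49 (adjusted p = 0.213) with arrays apart, Ddc by 0.30 ± 0.26 (adjusted p = 0.449) and Gad2 by 0.17 ± 0.12 (adjusted p = 0.343). The Gad1 mean exceeded 14 of 15 bacterial controls in both groups, and Gad2 is not shown to stand above background in either. All 12 acinar markers were higher at 24 h than at 21 days, as given above. Of 10 beta cell markers 6 were higher at 24 h than at 21 days (median 0.38), and their part in the Th value was not tested. In a fit added after seeing the data, with covariates for acinar and leukocyte markers, Th differed by -1.64 (adjusted p = 0.0497), and with the Gapdh measure as covariate by -1.81 (adjusted p = 0.00153).

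After withdrawal, compared with 21 days, Th was higher at each time and passed the test at 4 days. At 2 days the difference was 0.62 ± 0.29 (limma, adjusted p = 0.298) and the arrays overlapped at 8.46 and 8.59. At 4 days Th rose by 1.36 ± 0.29, or 2.57-fold, with arrays apart (adjusted p = 0.0154). Between the same groups 10 of 10 beta cell markers were higher (median 0.37), as were 10 of 14 neuronal markers (median 0.30), and their part in the Th value was not tested. At 6 days the difference was 1.07 ± 0.29, also with arrays apart (adjusted p = 0.106). The 4-day call was lost without array 1 of the 21-day group (adjusted p = 0.0548), its array 2 (adjusted p = 0.0892) or array 1 of the 4-day group (adjusted p = 0.0841). These comparisons share the 21-day arrays with each other and with that against 24 h, so they are not independent.

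The other 3 genes passed no test against 21 days. At 2 days off, 0 of the 4 genes were called by limma, against 0.17% of all genes, and 2 had an unadjusted p under 0.05, against 16.6% of all genes. At 4 days 1 of 4 was called, higher, against 4.52% of all genes higher and 2.39% lower. At 6 days 0 of 4 were called, against 0.339% of all genes, and 1 had an unadjusted p under 0.05, against 14.8%. Gad1 differed from 21 days by -0.03, -0.08 and -0.96 at 2, 4 and 6 days (SE 0.49, adjusted p = 0.979, 0.935 and 0.392), with arrays apart at 6 days. Ddc differed by 0.16, 0.37 and -0.05 (SE 0.26, adjusted p = 0.776, 0.355 and 0.960). Gad2 differed by -0.27, -0.21 and -0.23 (SE 0.12, adjusted p = 0.285, 0.250 and 0.403).

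**Figure D2:**
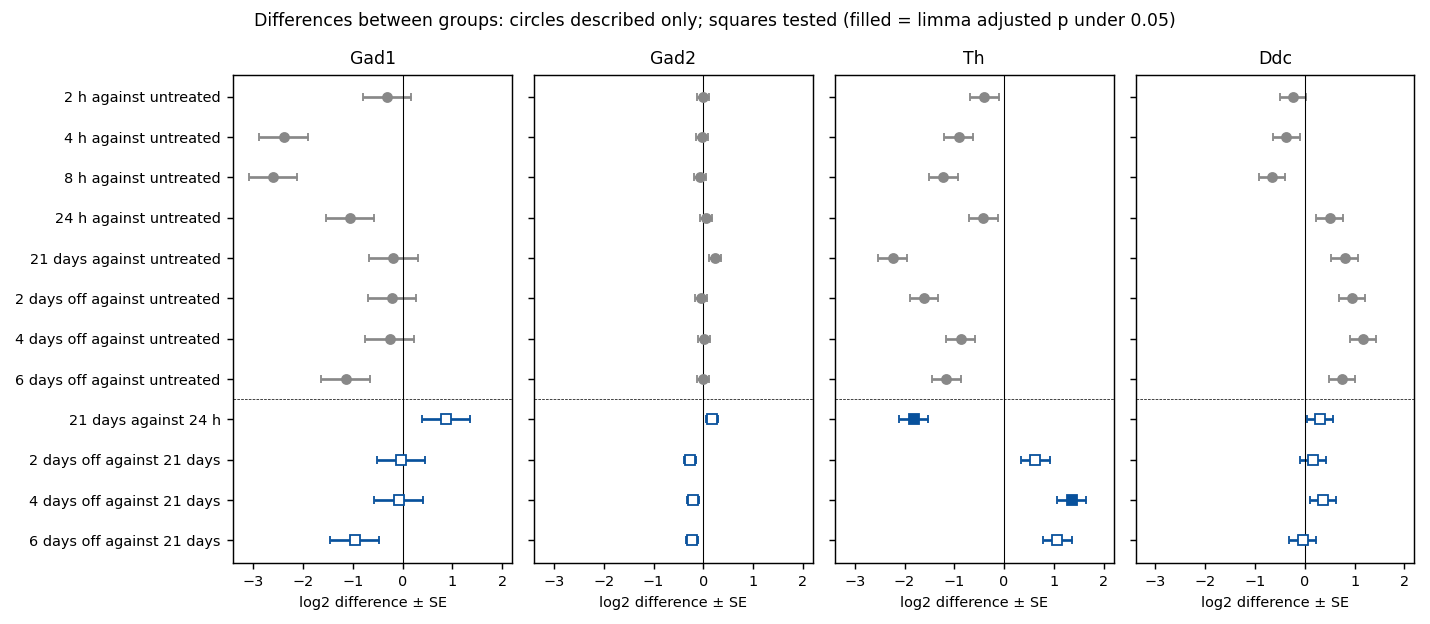
Log2 differences (horizontal bars, ± SE from limma) of the 4 genes in 12 comparisons; grey circles were described only and blue squares tested, filled where the adjusted p was under 0.05. The filled squares are Th at 21 days against 24 h (-1.81) and at 4 days off against 21 days (1.36).

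Genes that surround these enzymes were taken from lists of GABA and monoamine biology: 140 symbols in 7 lists, 91 of them on the array. Between 24 h and 21 days, 12 of the 91 were called higher and 12 lower by limma, 13.2% each way, near the shares of all genes, and their median difference was 0.15 against 0.06 over all genes. The largest share of called genes was among the 13 enzymes of monoamine synthesis and its cofactors, with 5 lower and 3 higher and a median of -0.27. With the acinar and leukocyte covariates only 2 of the 91 were called. The share of all genes called in that fit is not given here, so the drop cannot be read as particular to the listed genes. Of the 24 called genes, 10 read below the highest bacterial control mean, 7.14, in both groups and are not shown to stand above background: Gabrb1, Gabrg3, Gabrg1, Slc1a1, Htr1a, Adra1b, Tyr, Spr, En1 and Lmx1b. Each of the 24 called genes lost its call under at least 1 of the alternatives, Slc1a4, Slc1a1, Spr, Tat and Adra1b under 1 each and Gabrg1 under 11 of 15.

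Gch1 makes the precursor of tetrahydrobiopterin, the cofactor of Th. It read 8.07, 7.70 and 8.75 at 24 h and 7.02, 7.19 and 7.42 at 21 days, with no overlap, and fell by 0.96 ± 0.26 (limma, adjusted p = 0.0117). Its call was lost with the acinar and leukocyte covariates (-1.10, adjusted p = 0.118), with the Gapdh covariate (-0.81, adjusted p = 0.0602), and without array 3 of the 24 h group (-0.68, adjusted p = 0.0938) or array 1 of the 21-day group (-0.87, adjusted p = 0.0506). At 4 days off drug it read 8.52, 8.09 and 8.15 and had risen from 21 days by 1.04 ± 0.26 (limma, adjusted p = 0.0266). Gch1, like Th, was thus lower at 21 days than at 24 h and at 4 days off. At 4 days off the Gch1 mean, 8.25, was above its untreated mean, 7.85, whereas Th, at 9.52, stayed below its untreated mean, 10.39. Gch1 read 7.63, 8.09 and 7.82 in untreated islets and 6.70, 7.83 and 6.96 at 8 h, and from 8 h to 24 h it rose by 1.01 ± 0.26 (adjusted p = 0.0464), a call lost under 10 of 16 alternatives. The comparison of 24 h with 8 h called 1 of 91 listed genes, against 2.15% of all genes. The call of Gch1 at 4 days off was lost under 5 of 16 alternatives.

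**Figure D3:**
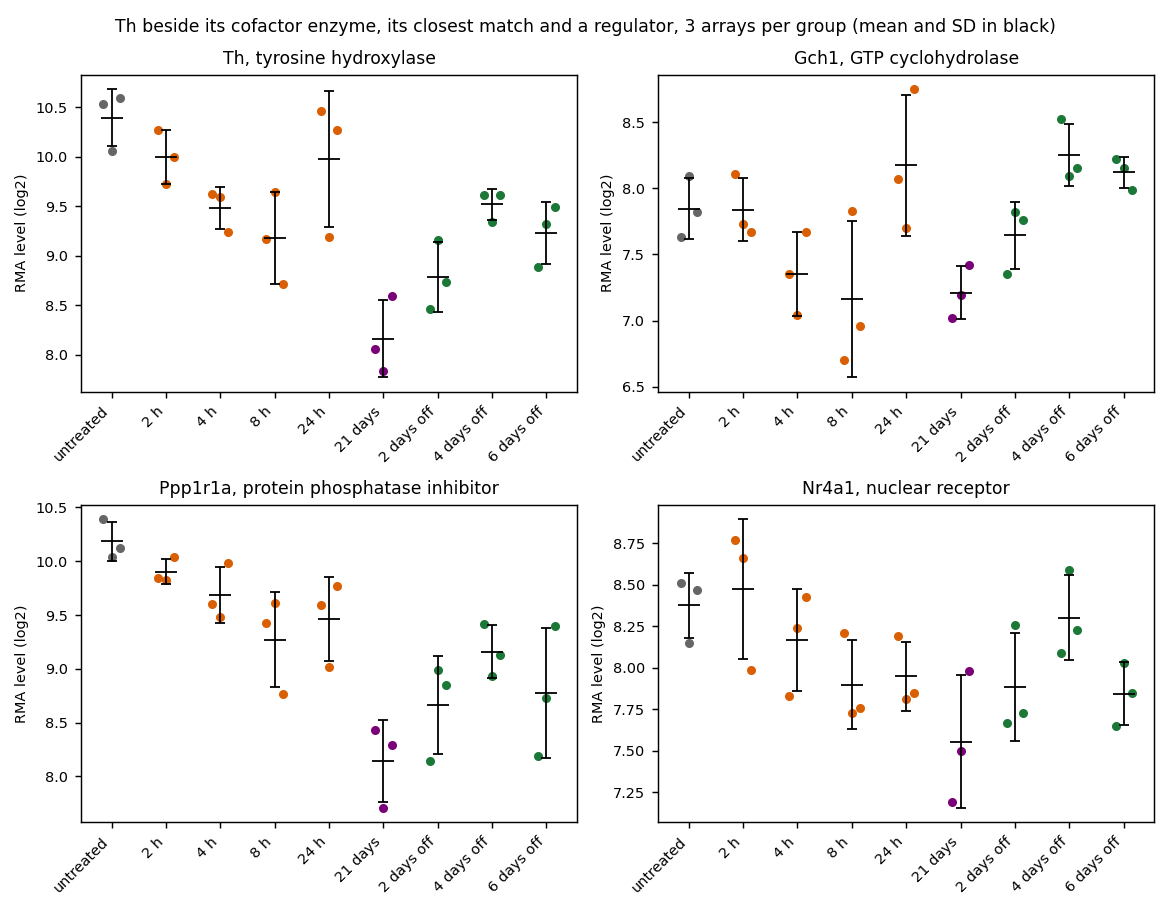
RMA level (log2) of Th, Gch1, Ppp1r1a and Nr4a1 in 9 groups; points are arrays (3 per group), black bars the mean and SD. Th and Gch1 are both low at 21 days (means 8.16 and 7.21) and higher 4 days off drug (9.52 and 8.25).

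Other enzymes of the list moved both ways between 24 h and 21 days. Fah, which acts late in tyrosine breakdown, fell by 0.77 ± 0.22 (limma, adjusted p = 0.0172), and Pcbd2, which recycles tetrahydrobiopterin, by 0.67 ± 0.21 (adjusted p = 0.0270). Spr, the last enzyme of tetrahydrobiopterin synthesis, fell by 0.41 ± 0.09, whereas Pts, the enzyme before it, rose by 0.58 ± 0.20. Tat, which starts tyrosine breakdown, rose by 0.59 ± 0.14. Tyrosinase, Tyr, rose by 0.58 ± 0.15 to a level of 4.62, which is in the range of the bacterial controls, and Pnmt, which makes adrenaline, fell by 0.38 ± 0.12. A further Pnmt probe set differed by 0.24 (adjusted p = 0.0889), so its direction depends on the probe set. Qdpr, another enzyme of cofactor recycling and the list member of highest mean level, was not called, at 11.05 and 10.78.

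Of 11 genes of monoamine storage, uptake and breakdown, 3 were lower and 0 higher. They were Aldh2, a mitochondrial aldehyde dehydrogenase (-0.90 ± 0.23), and Slc7a8 (-0.61 ± 0.16) and Slc3a2 (-0.33 ± 0.09), parts of the amino acid transporters that carry tyrosine and L-DOPA. Slc3a2 rose 4 days off drug by 0.49 ± 0.09 (limma, adjusted p = 0.0104). None of these 3 stores a monoamine. Of 18 monoamine receptors, 1 was higher (Htr1a, 0.34) and 1 lower (Adra1b, -0.33). Of 20 regulators of catecholamine genes, En1 was higher by 0.43 and Lmx1b lower by -0.32. Egr1 and Creb1 were not called by their probe sets of highest mean. A further Egr1 probe set was higher by 1.29 (limma, adjusted p = 0.000176). A further Creb1 probe set was higher by 0.50 (adjusted p = 0.00988), and another differed by -0.16 (adjusted p = 0.287). For these genes the call thus depends on the probe set. Nr4a2, a nuclear receptor known to act on Th in neurons, was lower 4 days off drug than at 21 days, by -0.42 ± 0.11 (adjusted p = 0.0390), a call lost under 7 of 15 alternatives and at levels, 5.57 and 5.15, within the bacterial control range.

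On the GABA side, 4 of 13 receptor genes were higher at 21 days than at 24 h and 0 lower. They were Gphn, a scaffold of inhibitory synapses (0.79 ± 0.27), and the receptor subunits Gabrb1 (0.46), Gabrg3 (0.37) and Gabrg1 (0.32). The 3 subunits read 6.80, 5.95 and 4.82 at 21 days, all within the range of bacterial control means, 3.58 to 7.14. Gabbr1, a metabotropic GABA receptor subunit, was not called, at 9.20 and 9.22, nor was Gabarap, a GABA receptor associated protein, at 10.21 and 10.06. Of 8 transporters of GABA, glutamate and related amino acids, Slc1a1, a glutamate transporter, was higher by 1.05 ± 0.23, from 4.76 to 5.80 and so within that range, and Slc1a4, a neutral amino acid transporter, lower by -1.03 ± 0.16. A further Slc1a1 probe set differed by -0.28 (adjusted p = 0.0610), so its direction depends on the probe set. Of 8 relatives and breakdown enzymes, Pdxk, which makes the cofactor shared by Gad1, Gad2 and Ddc, was lower by -0.59 ± 0.17, while Glul was higher by 0.52 and Got2 by 0.40. Further probe sets of Glul and Got2 differed by 0.08 and -0.01 (adjusted p = 0.827 and 0.957).

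Compared with untreated islets, none of the 91 listed genes was called by limma at 2 h, 4 h, 8 h or 24 h. The shares of all genes called were 0.485%, 0.909%, 1.91% and 1.58%. At an unadjusted p under 0.05 there were 8, 4, 16 and 12 listed genes (8.79%, 4.40%, 17.6% and 13.2%), against 12.7%, 9.68%, 17.1% and 12.6% of all genes. At 21 days 4 were higher and 9 lower, against 7.95% of all genes higher and 8.46% lower. Of these 13 genes, 4 kept their call under every alternative: Slc1a4 (-1.02), Fah (-0.95), Slc1a1 (0.92) and Slc7a8 (-0.69). The other 9 lost their call under at least 1 alternative. A further Slc1a1 probe set differed by -0.24 (limma, adjusted p = 0.129), and the Slc1a1 levels, 4.88 and 5.80, lay within the bacterial control range. Nr4a1, a nuclear receptor induced by cyclic AMP, was lower by -0.82 ± 0.23 (adjusted p = 0.0198), a call lost under 5 of 16 alternatives, and Creb1, the factor that binds the cyclic AMP response element, by -0.41 ± 0.10 (adjusted p = 0.0104), although 2 further Creb1 probe sets differed by 0.07 and 0.28 (adjusted p = 0.706 and 0.150) and its levels, 6.76 and 6.36, lay within the bacterial control range. Glud1, which makes and uses glutamate, was higher by 0.65 ± 0.21, with 0.02 for a further probe set and the call lost under 7 of 16 alternatives, and Slc7a5, the tyrosine and L-DOPA transporter, by 0.59 ± 0.17, lost under 3 of 16. Off drug, 17, 22 and 7 of the 91 were called at 2, 4 and 6 days, while 23.2%, 26.5% and 13.5% of all genes were. Of the called genes 5, 5 and 1 were higher and 12, 17 and 6 lower. The shares of all genes in each direction are not given here. With only the 6 arrays compared the counts of called listed genes were 6, 15 and 1, with array weights the count at 6 days was 12, and leaving out arrays gave 12 to 20, 10 to 25 and 4 to 6. The counts fell to 11 and 10 at 4 days without untreated array 1 or 2, and to 4 at 6 days without untreated array 2. The shares of all genes in these fits are not given here, so these changes cannot be read as particular to the listed genes. Of the 22 genes called at 4 days, 8 kept their call under every alternative, among them Gphn (1.39), Fah (-1.20) and Slc1a4 (-0.96). Foxa2, a forkhead factor of islets and dopamine neurons, was higher by 0.69 ± 0.21 at 4 days (limma, adjusted p = 0.0186), a call lost under 3 of 16 alternatives.

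Against 21 days, 0 of the 91 were called by limma at 2 and 6 days off drug, with 10 and 11 at an unadjusted p under 0.05 (11% and 12.1%, against 16.6% and 14.8% of all genes). At 4 days 2 were higher (Gch1 and Slc3a2) and 2 lower (Gabrg3 and Nr4a2), and the median was -0.15 against -0.06 over all genes.

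**Figure D4:**
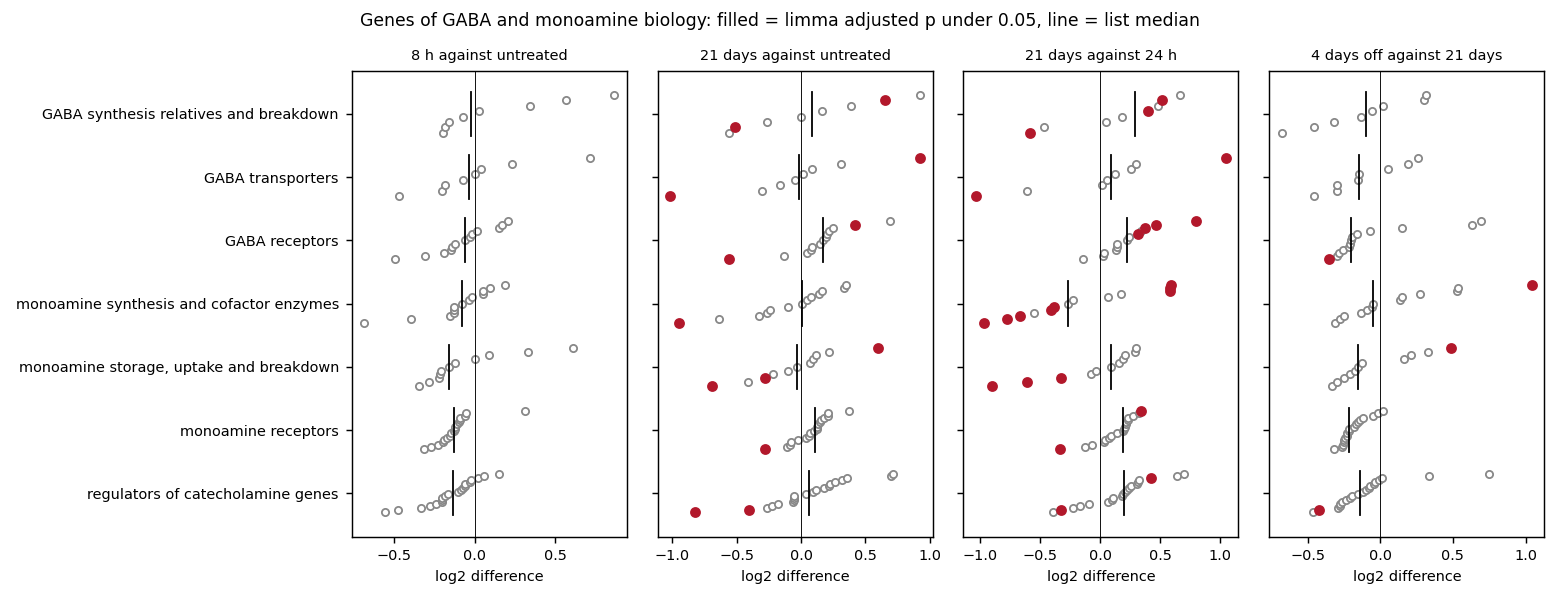
Log2 differences of 91 listed genes in 7 lists for 4 comparisons; each point is a gene, filled where the limma adjusted p was under 0.05, and the vertical lines are list medians. No point is filled at 8 h, and 24 are filled at 21 days against 24 h.

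The genes whose levels over the 27 arrays were most like each enzyme, by Pearson's r among genes with a symbol of their own, are given as a description. For Th they were Ppp1r1a (0.88), an inhibitor of protein phosphatase activated by cyclic AMP signalling, Ece1 (0.86), Arfgap3 (0.84), Gadd45g (0.84) and Wsb2 (0.84). For Ddc they were Tceal9 (0.95), Pnrc2 (0.92), Akr1c13 (0.90), Sec22b (0.90) and Foxa2 (0.89). For Gad1 they were Mdm1 (0.73), Prkar1b (0.72), Tuft1 (0.71), Ptprn (0.71) and Peg3 (0.70), of which Ptprn is a protein of secretory granules. Gad2 was most like Bhmt2 (0.74), Slc22a12 (0.74), H2-Pa (0.73), Kcnj2 (0.71) and Hoxa11os (0.70), at levels where Gad2 is not shown above background. By Spearman's rho, 3, 1, 3 and 4 of the 5 nearest genes of Gad1, Gad2, Th and Ddc were the same.

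**Figure D5:**
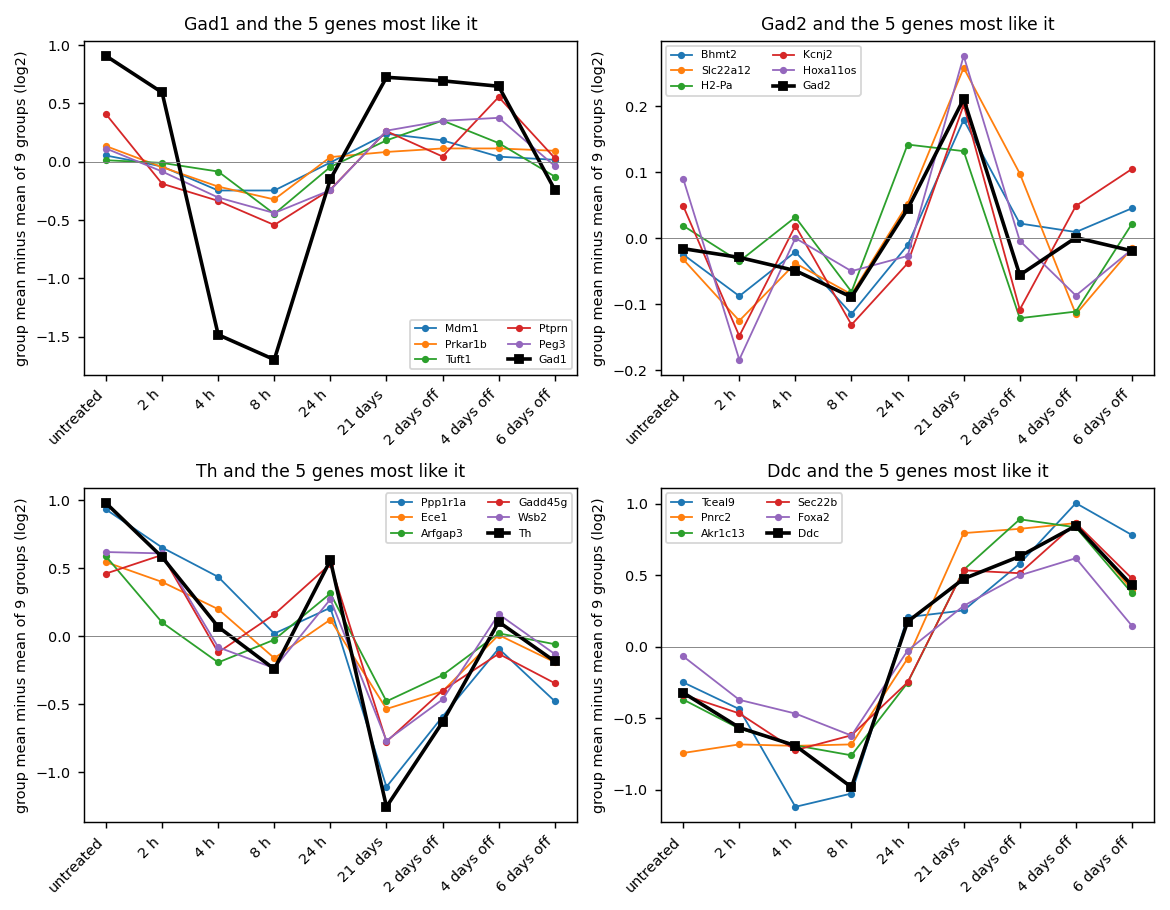
Group means minus the mean of the 9 groups (log2) for Gad1, Gad2, Th and Ddc (black) and the 5 genes most like each. The genes most like Th also have their lowest values at 21 days, and Gad1 (span 2.60) varies more than its 5 nearest genes.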

How the data were processed

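RNA from laser-captured islets was linearly amplified and hybridised to 1-colour arrays, 3 per group and 27 in all. The deposited values are log2 RMA levels, made by the authors with RMA, as the submitters' processing notes name it; the RMA version is not given in the sources used here, and no scanner files were used here. RMA puts all arrays on one distribution, so levels are relative within an array. The number of arrays limits the precision.

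The 66 control probe sets were left out, and the other 12422 were fitted with limma 3.58.1 in R 4.3.3, as 9 group means over 27 arrays with 18 residual degrees of freedom; p-values were adjusted by Benjamini-Hochberg over all 12422, two-sided, with calls at 0.05. A permutation of 3 arrays against 3 cannot go below p = 0.1. Names come from the platform annotation: 10833 probe sets had 1 symbol, 396 several and 1193 none. A gene was read by its probe set of highest mean, and counts of genes are over 8251 genes. Each of the 4 enzymes had 1 probe set. The fit was tested on simulated data. No 2 arrays were identical, and arrays of a group correlated at 0.957 to 0.992.

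The 4 enzymes, the gene lists and the tests were chosen with earlier results of these data known. Named genes were the enzymes, listed genes called in a comparison (up to 3 of largest difference per list) or among the 3 of highest mean in a list, the 5 genes of highest Pearson correlation with each enzyme, and cell markers; further called genes were named after their values were seen. Alternatives were median centring, quantile normalization, a filter on low values, a floor at the bacterial controls, trended and robust variance, array weights, the replicate number as a block, the 6 arrays compared alone, each array left out and, chosen after seeing the data, marker and Gapdh covariates. Same-numbered arrays did not deviate together at the median (108 pairs of arrays, median r 0.02, against -0.01 for other numbers). Single pairs ran from -0.46 to 0.51, with 36 over 0.1. The numbers were not used as pairs in the main fit, and batches shared by some groups were not tested.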

Additional observations from a re-analysis of the deposited data

Results flagged for a closer look

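Th differed from untreated islets by -2.23 at 21 days and by -0.42 at 24 h. The difference between these effects, -1.81 on the log2 scale, is the comparison of 21 days with 24 h given above, because the untreated mean cancels. Its test (limma, adjusted p = 0.000282) is therefore the same one and no second result. All 3 arrays at 21 days lay below all 3 at 24 h. Acinar marker signal and the Gapdh 3′ to 5′ difference also differed between these groups, and 6 of 10 beta cell markers were higher at 24 h (median 0.38). The b-Actin 3′ to 5′ difference had the opposite order to that of Gapdh, 2.39 at 21 days and 2.70 at 24 h, with overlapping arrays. The Th difference was -1.64 (limma, adjusted p = 0.0497) with acinar and leukocyte markers together as covariates and -1.81 (adjusted p = 0.00153) with the Gapdh measure.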

How the results depend on the processing

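The fall of Th from 24 h to 21 days kept its call under all 16 alternatives, with values from -2.21 to -1.57 and adjusted p from 5.96e-05 to 0.0497. Its rise at 4 days off against 21 days ranged from 1.20 to 1.58 when an array was left out, and 3 of those 6 fits lost the call (adjusted p up to 0.0892). At 6 days off Th was called only with array weights (1.20, adjusted p = 0.0166). Gad1 at 21 days against 24 h was called only in the 6 arrays alone (0.87, adjusted p = 0.0390). With array weights Gad1 turned to 0.17 at 2 days and 0.36 at 4 days off against 21 days, and leaving out arrays gave -0.41 to 0.32 and -0.51 to 0.72. Ddc turned to -0.28 at 21 days against 24 h and to 0.15 at 6 days off with the acinar and leukocyte covariates; leaving out arrays gave -0.038 to 0.29 at 2 days and -0.27 to 0.24 at 6 days off. Gad2 was called with array weights at 6 days off (-0.35); leaving out arrays gave 0.06 to 0.34 at 21 days against 24 h and -0.38 to -0.10 at 4 days off. The cause of these changes was not tested.

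Counts of the 91 listed genes called were, with array weights, 38 at 21 days against 24 h (24 in the main analysis), 26 at 4 days off (4), 4 at 6 days off (0), and 1 at 2 h and 1 at 8 h (0 each). The acinar and leukocyte covariates gave 2 at 21 days against 24 h, the Gapdh covariate 1 at 4 h and 1 at 8 h, and the 6 arrays alone 9 at 4 days off. Leaving out arrays gave 12 to 20 at 21 days against 24 h, 0 to 9 at 4 days off, 0 to 2 at 2 h, 0 to 1 at 4 h, 0 to 2 at 8 h, and 7 to 10 at 21 days against untreated. The shares of all genes under the alternatives are not given here, so these counts cannot be read as particular to the listed genes. With the replicate block Th differed by -1.81 (adjusted p = 0.000453) and 1.36 (adjusted p = 0.0165), and the block changed no call among the 4 enzymes. Pnmt at 21 days against 24 h turned to 0.028 with the acinar and leukocyte covariates. The filter on low values removed Gad1 and Gad2, and averaging probe sets changes nothing where each gene has 1. By Pearson's r over the 9 group means, 2, 0, 2 and 1 of the 5 genes nearest Gad1, Gad2, Th and Ddc were the same.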
